A study of Mus musculus with 12 samples.

Results

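Troponin is the calcium switch of the thin filament, and its 8 genes are described here across 12 libraries of neonatal mouse heart cells and of fibroblasts under direct cardiac reprogramming. The genes were chosen by name from the deposited table of 23423 genes: the troponin T genes Tnnt1, Tnnt2 and Tnnt3, the troponin I genes Tnni1, Tnni2 and Tnni3, and the troponin C genes Tnnc1 and Tnnc2. The libraries, of polyadenylated RNA, make up 6 groups of 2 each. All cells traced back to hearts of CD1 mice at postnatal day 1.5. The first group was cardiac fibroblasts, cultured and collected 3 days after they received a retrovirus with the factors Mef2c, Gata4 and Tbx5 (MGT) together with a lentiviral hairpin against the splicing repressor Ptbp1 (shPtbp1). The second received MGT with a non-targeting lentiviral hairpin (shNT), the third MGT alone, without any lentivirus, and the fourth is labelled as given a pMXs-puro control retrovirus. The last 2 groups were not cultured: cardiomyocytes (CM) from a commercial neonatal isolation system, and fibroblasts (CF) enriched on magnetic beads by the surface protein Thy1. MGT is used to turn fibroblasts into cardiomyocyte-like cells without a stem cell stage, and the submitters made these libraries as a bulk companion to single-cell data and to look at splicing without Ptbp1. Nothing in the labels says that the 2 libraries of a group came from separate animals or cultures, so every p-value measures the spread between these libraries, which may be technical.

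In striated muscle, troponin T ties the complex to tropomyosin, troponin I holds actin and myosin apart at rest, and troponin C binds the calcium that releases this hold. Each subunit has isoforms named for the muscle that uses them: Tnnt1 and Tnni1 for slow skeletal muscle, Tnnt2 and Tnni3 for the heart, Tnnt3, Tnni2 and Tnnc2 for fast skeletal muscle, while Tnnc1 serves both heart and slow muscle. The neonatal mouse heart is in the middle of a known exchange in which the slow skeletal troponin I of the fetal heart, Tnni1, gives way to the cardiac Tnni3.

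The genes lie largely in pairs of a troponin I and a troponin T gene, placed here with GENCODE annotation of GRCm38, the build that the submitters call mm10. On chromosome 7, Tnni3 (4518305 to 4524229, minus strand) stood 1923 bp from Tnnt1 (4504570 to 4516382, minus strand). On chromosome 1, Tnni1 (135779434 to 135810989, plus strand) and Tnnt2 (135836354 to 135852260, plus strand) were parted by Lad1. On the same chromosome as the first pair, Tnni2 (142441808 to 142444410, plus strand) and Tnnt3 (142498836 to 142516009, plus strand) were parted by Lsp1. Tnnc1 (chromosome 14, 31208312 to 31211729, plus strand) lay inside the span of Nisch on the other strand, and Tnnc2 (chromosome 2, 164777161 to 164779967, minus strand) overlapped Ube2c on the other strand. Tnni3 overlapped Dnaaf3 on the same strand, whose level was 1.08 to 2.44 scaled CPM in the 12 libraries, and Tnnt3 overlapped the noncoding Prr33 on the other strand. Which strand setting the counting used was not given in the sources, so reads of an overlapping partner cannot be told apart with certainty, and no strand setting parts Tnni3 from Dnaaf3.

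RefSeq promoter windows of GRCm38.p6 were at hand for 6 of the 8 genes. Against CF, Tnnt2 was higher in the control retrovirus cultures, while Tnni3 and Tnnc1 were both lower. The bases upstream of the RefSeq start of these cardiac T, I and C genes are shown. Each runs 5′ to 3′ on the gene's own strand and leaves out annotated exons, and capitals mark matches to the GATA motif (AGATAA), the T-box motif (AGGTGT) or the TEAD motif (CATTCC) on either strand.
Tnnt2, chr1:135836084-135836333, plus strand: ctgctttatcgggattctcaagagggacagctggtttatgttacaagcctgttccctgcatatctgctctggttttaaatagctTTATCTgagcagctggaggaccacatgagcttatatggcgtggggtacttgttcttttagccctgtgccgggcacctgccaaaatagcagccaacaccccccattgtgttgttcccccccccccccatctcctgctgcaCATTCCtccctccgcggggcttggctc
Tnni3, chr7:4522529-4522694, minus strand: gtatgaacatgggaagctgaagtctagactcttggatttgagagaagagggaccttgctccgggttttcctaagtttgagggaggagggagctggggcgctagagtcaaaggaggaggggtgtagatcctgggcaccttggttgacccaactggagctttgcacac
Tnnc1, chr14:31208062-31208311, plus strand: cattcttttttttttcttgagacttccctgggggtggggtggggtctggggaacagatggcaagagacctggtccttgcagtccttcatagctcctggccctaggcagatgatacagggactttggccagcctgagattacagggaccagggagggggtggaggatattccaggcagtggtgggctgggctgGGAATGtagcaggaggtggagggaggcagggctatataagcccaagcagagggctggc
Counted back from the RefSeq start, the Tnnt2 window held a GATA match on the reverse strand at -166 to -161 and a TEAD match at -27 to -22, and the motifs did not overlap. The Tnnc1 window held a TEAD match on the reverse strand at -58 to -53. No match fell in the Tnni3 stretch shown, and the T-box match of its full window, at -201 to -196, lay in the part left out as exon. T-box matches also stood upstream of Tnni1, at -103 to -98 in the first of its windows, and of Tnnt1, at -157 to -152, where the match overlapped an E-box (CANNTG). Among all 32851 mouse windows of 250 bases, 9.99% held the GATA motif, 11.8% the T-box motif, 12.6% the TEAD motif and 66.2% an E-box. The MEF2 site and the CArG box, searched by their usual consensus, were in none of the members' 8 windows and in 2.92% and 1.47% of all windows. These matches describe letters only, and no binding was measured.

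Depth ran from 49320858 to 94005212 assigned reads a library. Levels are in scaled CPM (reads per 1000000 reads assigned to genes, after division by a factor for each library), and 1 read was worth 0.0106 to 0.0203 CPM. Of the 8 genes 7 passed the filter of at least 1 CPM in at least 2 libraries, which left 13977 genes in the tests, and Tnnc2 did not. Fold changes were taken after adding 0.5 to the scaled CPM, in log2 units, with a standard error (SE) from the limma fit; adding 0.5 understates the change of low genes. A change was called at an adjusted p below 0.05.

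The labels were checked before the results. The hairpin target Ptbp1 stood at 79.8 ± 1.85 scaled CPM with MGT and shPtbp1, 362 ± 3.62 with MGT and shNT, 372 ± 11.2 with MGT, 358 ± 4.8 in the retrovirus control, 420 ± 1.26 in CM and 489 ± 2.46 in CF (SD, n = 2 each). Replicate 2 of the shPtbp1 group has a label that names Ptbp2 instead, and its Ptbp1 level was 78.5. Tbx5, a delivered factor, was at 1808.8 ± 54.2 with MGT, yet also at 661 ± 23.2 in the retrovirus control, against 15.3 ± 1.22 in CM and 7.23 ± 0.415 in CF. Mef2c followed with 741 ± 29 with MGT and 322 ± 12.3 in that control, against 139 ± 0.811 in CF, and Gata4 with 692 ± 12.6 with MGT and 358 ± 24.1 in that control, against 219 ± 1.03 in CF. The control titles name lacZ while other labels name an empty vector, and because of these labels and the Tbx5 reads the group is called the control-labelled cultures throughout. Neither fresh preparation was pure by its markers. The 12 cardiomyocyte markers summed to 14476.8 to 15251.7 scaled CPM in CM and to 1473.7 to 1506.3 in CF, and the 10 fibroblast markers to 22215.7 to 22338.4 in CM and 40930.8 to 41850.2 in CF. In RNA from bulk samples, fewer cells of a type and less RNA per cell cannot be told apart.

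Tnnt2, cardiac troponin T, drew the most reads of the members in every library, a count that is not per length. It stood at 3795 and 4126 scaled CPM with MGT and shPtbp1, 3167 and 3446 with MGT and shNT, 3061 and 3241 with MGT, 2423 and 2187 in the control-labelled cultures, 2093 and 1982 in CM, and 182 and 190 in CF. All 8 culture libraries lay above both CM libraries, and the CF libraries lay far below the rest. Only the shNT and MGT groups overlapped. Overlap of groups is described here and below without a test, and the share of all tested genes free of overlap is not given. An exact test of 2 libraries against 2 cannot go below p = 0.33, so lack of overlap alone is weak evidence. Ranked by CPM among all genes of a library, without regard to length, it took places 13 to 14 with shPtbp1, 18 to 20 with shNT, 22 to 24 with MGT, 30 to 36 in the control-labelled cultures, 28 in both CM libraries and 871 to 911 in CF.

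Tnnt1, slow skeletal troponin T, was highest in CM and next highest in CF. It had 1.56 and 1.70 scaled CPM with MGT and shPtbp1, 1.08 and 1.12 with MGT and shNT, 1.44 and 1.69 with MGT, 1.56 and 1.08 in the control-labelled cultures, 18.0 and 17.7 in CM, and 5.84 and 6.48 in CF. CM lay above CF and CF above every culture, whereas neighbouring culture groups in the order overlapped. Tnnt3, fast skeletal troponin T, stayed within a narrow band: 2.43 and 3.15 with MGT and shPtbp1, 3.84 and 4.24 with MGT and shNT, 4.32 and 3.71 with MGT, 3.08 and 3.15 in the control-labelled cultures, 1.63 and 1.80 in CM, and 3.74 and 2.92 in CF. CM was the lowest group, and no other neighbours in its order were free of overlap.

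Tnni3, cardiac troponin I, had 31.7 and 35.7 scaled CPM with MGT and shPtbp1, 22.2 and 22.5 with MGT and shNT, 18.9 and 21.9 with MGT, 8.79 and 7.68 in the control-labelled cultures, 789 and 791 in CM, and 72.2 and 69.8 in CF. No groups overlapped, but the shNT and MGT groups lay close and their difference was not called (adjusted p = 0.129, limma). The control-labelled cultures were lowest. Tnni1, the fetal and slow isoform, had 6.47 and 6.07 with MGT and shPtbp1, 5.41 and 5.28 with MGT and shNT, 5.13 and 6.07 with MGT, 5.22 and 5.13 in the control-labelled cultures, 586 and 551 in CM, and 39.8 and 44.9 in CF. The cultures lay close together, below both fresh preparations. Tnni2, fast skeletal troponin I, was low everywhere: 0.508 and 0.491 with MGT and shPtbp1, 0.445 and 0.516 with MGT and shNT, 1.92 and 1.95 with MGT, 1.96 and 1.57 in the control-labelled cultures, 1.40 and 1.04 in CM, and 0.867 and 0.965 in CF. The 4 libraries with a hairpin virus were the lowest of the 12.

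Tnnc1, the troponin C of heart and slow muscle, had 19.3 and 21.1 scaled CPM with MGT and shPtbp1, 15.9 and 17.5 with MGT and shNT, 18.7 and 21.0 with MGT, 12.2 and 11.3 in the control-labelled cultures, 761 and 742 in CM, and 57.3 and 57.7 in CF. Its groups kept apart except for the shPtbp1 and MGT cultures, which overlapped. The partner on the other strand, Nisch, ran from 443 in a CM library to 669 in a CF library and did not share this pattern. Tnnc2, the fast skeletal form, was counted with 7 and 3 reads with MGT and shPtbp1, 4 and 7 with MGT and shNT, 1 and 1 with MGT, 2 and 3 in the control-labelled cultures, 5 and 8 in CM, and 8 and 4 in CF. These counts lay near the floor of 3 reads and under the filter, and no difference between groups was tested.

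**Figure D1:**
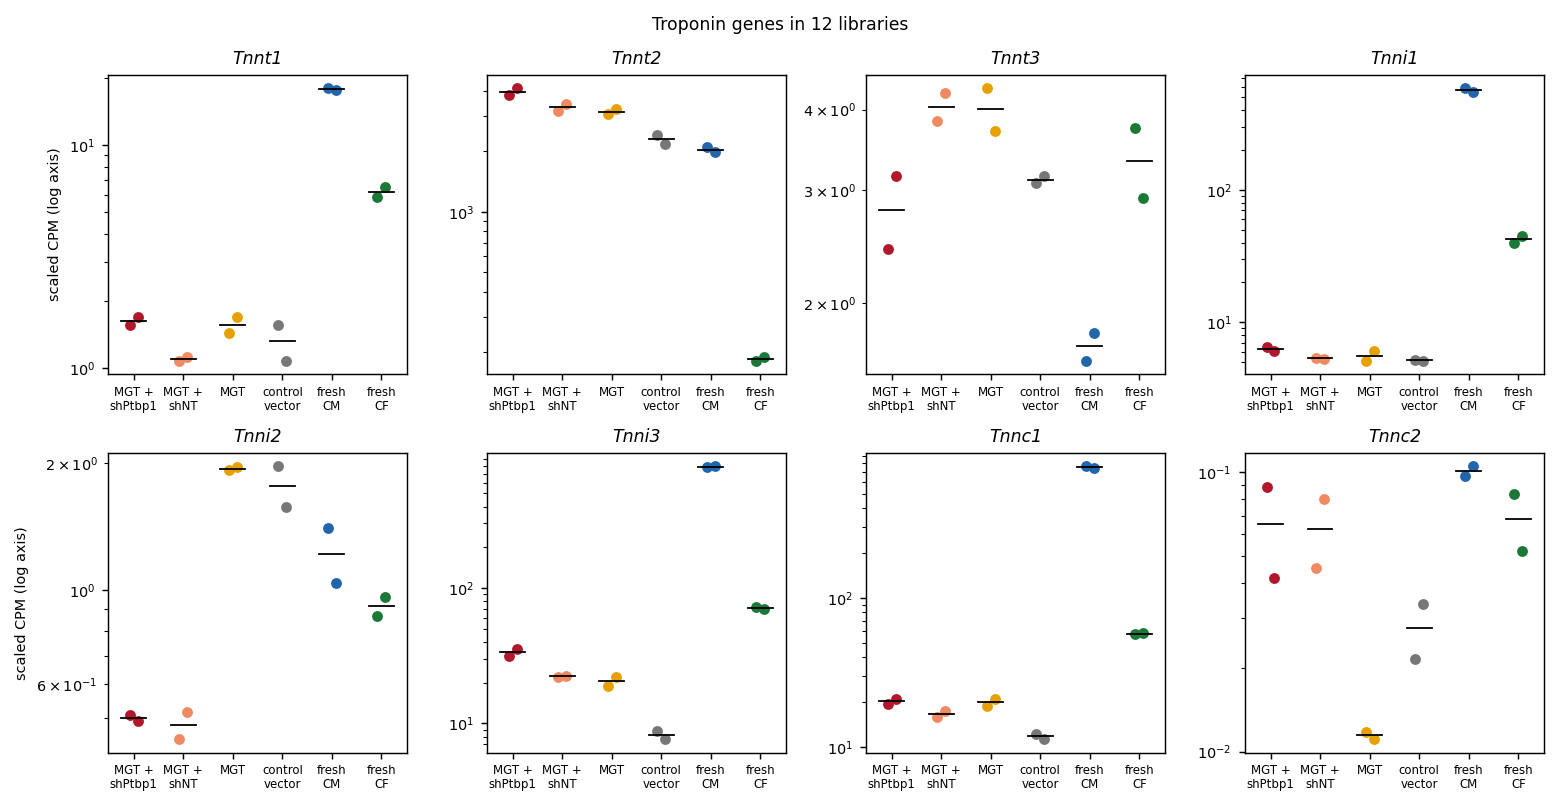
Scaled CPM of the 8 troponin genes on log axes, 1 panel a gene and 1 point a library, with a line at each group mean. Tnnt2 was high in the 4 culture groups and in CM, at 1982 to 4126, and low in CF, while Tnni3, Tnni1 and Tnnc1 were highest in CM.

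Cardiomyocytes were set against fibroblasts to see which troponins part the fresh cell types. Cardiac troponin T, both striated troponin I genes of the heart and Tnnc1 were 11 to 13.4 times as high in CM, slow troponin T less so, and fast troponin T was lower. By limma, 5 members were higher in CM, 1 was lower and 1 was not called, where 76.9% of all tested genes were called (35.2% higher, 41.7% lower). The members' median was 3.45 on the log2 scale, beside -0.05 over all tested genes. Tnni1 was higher by 3.73 (SE 0.076, adjusted p = 2.19e-18, limma), Tnnc1 by 3.70 (SE 0.061, adjusted p = 9.86e-20, limma), Tnni3 by 3.47 (SE 0.067, adjusted p = 9.51e-19, limma) and Tnnt2 by 3.45 (SE 0.059, adjusted p = 1.56e-19, limma). Ranked by fold change among the 13977 tested genes, these took places 11, 14, 31 and 32 from the top. Tnnt1 was higher by 1.47 (SE 0.123, adjusted p = 2.44e-09, limma), and Tnnt3 had a log2 fold change of -0.78 (SE 0.128, adjusted p = 1.99e-05, limma). Tnni2 had 0.27 (SE 0.132, adjusted p = 0.0682, limma) and was not called, but passed without CM replicate 2 (adjusted p = 0.0183, limma).

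The fibroblast preparation was not free of these transcripts. As a share of the mean in CM, CF held 9.11% of Tnnt2, 7.44% of Tnni1, 8.99% of Tnni3 and 7.65% of Tnnc1. Other cardiomyocyte genes were at like shares, with 12% of the atrial and adult myosin heavy chain Myh6, 10.6% of the calcium release channel Ryr2 and 7.46% of the ventricular light chain Myl2. Of Tnnt1, CF held 34.4% of the CM level. The 7 endothelial markers summed to 3779.8 to 3792.8 in CM and 2971.4 to 3023.2 in CF. How much of the troponin RNA in CF came from cardiomyocytes was not tested.

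Around the troponins, the thick filament list moved as 1 block, with 13 of 13 genes higher in CM and a median log2 fold change of 3.05. The light chains Myl3 (1080.4 ± 19 in CM, 72.8 ± 0.742 in CF), Myl2 and Myl7 led it. Of 24 thin filament partners, 11 were higher, 9 lower and 4 not called, with a median of -0.06. The actin filament regulators Lmod3 (22.7 ± 0.19 in CM, 1.39 ± 0.127 in CF) and Lmod2 and the anchoring protein Nrap had the largest changes, at 3.62, 3.59 and 3.24. Over all tested genes 35.2% were higher in CM and 41.7% lower, and the counts of the regulators stand beside these shares. Among 15 regulators of troponin T splicing, 5 were higher in CM and 8 lower, and the muscle splicing factors Rbm20 (2.91), Rbm24 (2.67) and Rbm38 (1.91) changed most. Among 15 tested regulators of muscle genes 7 were higher and 5 lower, led by the muscle methyltransferase Smyd1 (3.20), the cardiac homeobox factor Nkx2-5 (2.87) and the coactivator myocardin, Myocd (1.82).

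The control-labelled cultures were then set against the fresh CF libraries, to see what days in culture with that virus went with. Whether these cultures were grown from the same preparations as the CF libraries cannot be shown here. The subunits came apart: Tnnt2 was 12.4 times as high in the cultures, while Tnni3, Tnni1 and Tnnc1 were lower, at 11.6%, 12.2% and 20.5% of their CF means, and Tnnt1 at 21.5%. By limma 2 members were higher, 4 lower and 1 was not called, where 86.9% of all tested genes were called (43.5% higher, 43.4% lower). The log2 fold change of Tnnt2 was 3.63 (SE 0.059, adjusted p = 1.01e-20, limma), rank 84 of 13977 from the top. Those of the lower genes were -3.04 for Tnni3 (SE 0.067, adjusted p = 1.02e-18, limma), -2.91 for Tnni1 (SE 0.076, adjusted p = 1.39e-17, limma), -2.24 for Tnnc1 (SE 0.061, adjusted p = 2.19e-17, limma) and -1.88 for Tnnt1 (SE 0.123, adjusted p = 2.47e-11, limma). Tnni2 was higher by 0.67 (SE 0.132, adjusted p = 1.06e-04, limma), and Tnnt3 had -0.08 (SE 0.128, adjusted p = 0.584, limma). Tbx5 moved with this comparison, by 6.42 on the log2 scale, and its part in the troponin changes was not tested. The cardiomyocyte markers summed to 202 to 220 in the cultures and 1473.7 to 1506.3 in CF, with 11 of 12 lower and 1 higher. Smooth muscle and pericyte markers summed to 338 to 345 in the cultures and 1617.4 to 1640.1 in CF, with 6 of 8 lower and 2 higher. Endothelial markers summed to 113 to 119 in the cultures and 2971.4 to 3023.2 in CF, with 7 of 7 lower. Macrophage markers summed to 2724.1 to 2932.6 in the cultures and 626 to 627 in CF, with 4 of 6 higher and 2 lower. Fibroblast markers summed to 20747.9 to 22909.9 in the cultures and 40930.8 to 41850.2 in CF, with 5 of 10 lower, 3 higher and 2 not called. Skeletal myogenic markers summed to 449 to 469 in the cultures and 73.8 to 77.8 in CF, nearly all of it desmin, Des (459 ± 13.9 in the cultures, 72.8 ± 2.86 in CF). Of the 3 skeletal myogenic markers tested, 1 was higher and 2 were lower. The part of these cell types in the troponin changes was not tested either.

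Other sarcomere genes went both ways, as all tested genes did (43.5% higher, 43.4% lower). Of 13 thick filament genes 4 were higher and 9 lower, with a median of -1.13 beside 0.00 over all tested genes. The 4 were the atrial and embryonic light chain Myl4 (894 ± 19.9 in the cultures, 27.4 ± 0.352 in CF), the atrial light chain Myl7 (238 ± 10.5, against 17 ± 0.0925 in CF, log2 fold change 3.77) and the M-band proteins Myom2 (139 ± 4.21, against 20.4 ± 1.75 in CF, 2.74) and Myom1 (188 ± 0.637, against 60.4 ± 1.64 in CF, 1.63). Myl7, Myom2 and Myom1 are named here after their values were seen. On the other side stood Myl2 (4.59 ± 0.568 in the cultures, 245 ± 5.34 in CF, -5.60) and the ventricular heavy chain Myh7 (5.57 ± 0.234 in the cultures, 215 ± 7.47 in CF, -5.15), whose reads may be shared with Myh6. Of the 24 thin filament partners 13 were higher and 9 lower, led by the smooth muscle leiomodin Lmod1 (3.59), smooth muscle actin Acta2 (3.46; 5499.3 ± 167 in the cultures, 498 ± 9.63 in CF) and the tropomyosin Tpm1 (2.58), to which troponin T binds.

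**Figure D2:**
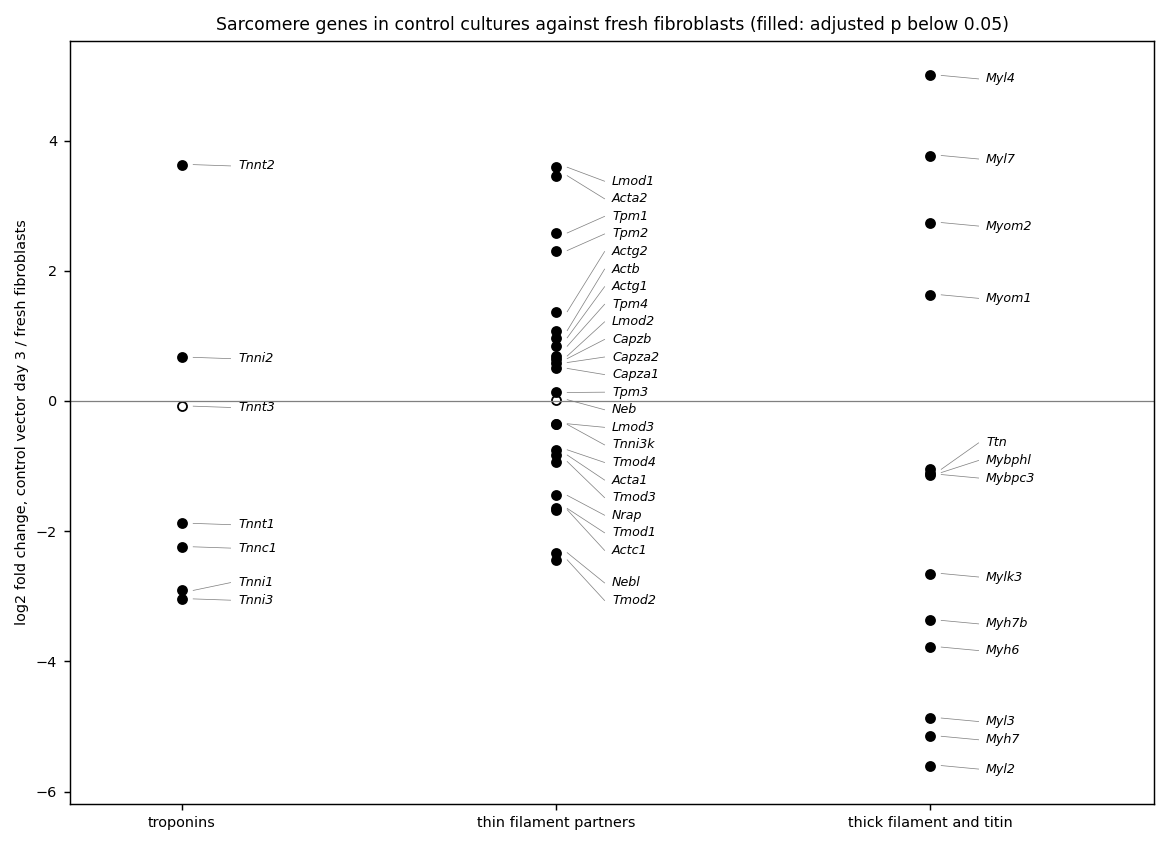
Log2 fold change, control-labelled cultures over CF, of the tested troponins, the 24 thin filament partners and the 13 thick filament genes, with filled points at adjusted p below 0.05. Tnnt2 (3.63) stood with Lmod1, Acta2, Myl7 and Myl4 on the high side, and Tnni3 (-3.04), Tnni1, Tnnc1 and Tnnt1 with most thick filament genes on the low side.

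Against CM, a comparison added after the values were seen, Tnnt2 of the control-labelled cultures was at 113% of the CM mean whereas Tnni1 was at 0.91%, Tnni3 at 1.04% and Tnnc1 at 1.57%. By limma 3 members were higher and 4 lower, where 85.5% of all tested genes were called (41.9% higher, 43.7% lower). The log2 fold changes were -6.65 for Tnni1, -6.50 for Tnni3, -5.94 for Tnnc1 and -3.35 for Tnnt1, and Tnni1 was 30th and Tnni3 37th from the bottom of 13977 genes. Tnnt2 was higher by 0.18 (SE 0.059, adjusted p = 0.0096, limma), a call that was lost without library scaling (0.08, adjusted p = 0.208, limma), without control replicate 1 (0.11, adjusted p = 0.123, limma) and without CM replicate 2 (0.13, adjusted p = 0.132, limma). Tnnt3 was higher by 0.71 (adjusted p = 4.69e-05, limma). Tnni2 was higher by 0.40 (adjusted p = 0.009, limma), and not called without control replicate 1 (adjusted p = 0.119, limma) or without CM replicate 2 (adjusted p = 0.142, limma).

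MGT cultures were set against the control-labelled cultures to read the response of the troponins to the factors. The 3 heart troponins were higher and the skeletal isoforms and Tnni1 were not called: Tnni3 was 2.48 times as high with MGT, Tnnc1 1.69 times and Tnnt2 1.37 times. By limma 3 members were higher and 4 were not called, where 35.6% of all tested genes were called (17.9% higher, 17.7% lower). The 4 were Tnnt1, Tnnt3, Tnni1 and Tnni2. Tnni3 rose by 1.26 (SE 0.067, adjusted p = 5.57e-11, limma), rank 47 of 13977, Tnnc1 by 0.73 (SE 0.061, adjusted p = 2.79e-08, limma) and Tnnt2 by 0.45 (SE 0.059, adjusted p = 7.88e-06, limma). Tnni1 had 0.10 (SE 0.076, adjusted p = 0.332, limma), and Tnni2 had 0.11 (SE 0.132, adjusted p = 0.556, limma). Tnnt3 had 0.32 (SE 0.128, adjusted p = 0.0628, limma), and passed with a pseudocount of 2 (adjusted p = 0.0421, limma) or in a fit of the 4 libraries alone (adjusted p = 0.032, limma). Tnnt1 had 0.19 (SE 0.123, adjusted p = 0.244, limma) and passed without control replicate 1 (0.38, adjusted p = 0.0348, limma). Even with MGT, Tnni3 was at 2.58% and Tnnc1 at 2.64% of the CM mean, while Tnnt2 was at 155%. Since Tbx5, Mef2c and Gata4 reads were also found in the control-labelled cultures, these folds compare libraries with higher and with lower levels of factor RNA. How the factor reads of the control-labelled cultures arose was not tested. The 12 cardiomyocyte markers summed to 312 to 320 with MGT and 202 to 220 in the control-labelled cultures. Of these 7 were higher with MGT, 1 lower and 4 not called. The 10 fibroblast markers summed to 16863.6 to 17062.2 with MGT and 20747.9 to 22909.9 in the control-labelled cultures. Among them 8 were lower with MGT, 1 higher and 1 not called. The higher one was Thy1, by which CF had been enriched (479 ± 39.9 with MGT, 306 ± 9.28 in the control-labelled cultures, 0.64). The 7 endothelial markers summed to 80.1 to 87.9 with MGT and 113 to 119 in the control-labelled cultures, with 5 lower and 2 not called. The skeletal myogenic markers summed to 835 to 852 with MGT and 449 to 469 in the control-labelled cultures, nearly all of it Des (843 ± 12.1 with MGT, 459 ± 13.9 in the control-labelled cultures), which the heart uses too. The part of these cell types in the result was not tested.

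Of 24 thin filament partners, 11 were higher with MGT, 2 lower and 11 not called, with a median of 0.16 beside -0.01 over all tested genes and beside 17.9% of all tested genes higher and 17.7% lower. Cardiac actin Actc1 (229 ± 3.72 with MGT, 98.8 ± 6.63 in the control-labelled cultures, 1.21), Lmod2 (1.01) and Lmod3 (0.45) changed most, and the 2 lower genes were the smooth muscle genes Actg2 (-0.26) and Lmod1 (-0.17). The thick filament had 8 of 13 higher and 1 lower, led by titin, Ttn (259 ± 12.7 with MGT, 88.7 ± 20.3 in the control-labelled cultures, 1.56), Myom2 (1.30) and Myl4 (0.82), and the lower one was Myl3 (-0.27). Among the splicing regulators 5 of 15 were higher and 2 lower, with Rbm24 at 0.85, Rbm20 at 0.76 and Rbfox1, a neuronal and muscle splicing factor, at -0.53. Of 14 tested genes of fast and skeletal muscle 6 were higher and 8 not called, at low levels for the calcium buffer parvalbumin, Pvalb (1.27 ± 0.0622 with MGT, 0.497 ± 0.0791 in the control-labelled cultures), and the light chain Myl1. The myogenic factors Myod1, Myf5, Myf6 and Pax7, which open the skeletal programme, had at most 8 reads in any library. Myog, another such factor, had 9 and 16 reads in the CM libraries and at most 4 in any other library.

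MGT with shNT was set against MGT alone, which differ by a hairpin lentivirus. Tnni2 with shNT was at 0.248 of its MGT mean, and small decreases were found for Tnnt1 and Tnnc1. By limma 3 members were lower and 4 were not called, where 44.7% of all tested genes were called (24.6% higher, 20.1% lower). Tnni2 fell by 1.31 (SE 0.132, adjusted p = 1.42e-07, limma), 274th from the bottom of 13977 genes, at 0.445 and 0.516 scaled CPM with shNT and 1.92 and 1.95 with MGT. Tnnc1 fell by 0.24 (SE 0.061, adjusted p = 0.00295, limma), a call lost without shNT replicate 1 (adjusted p = 0.0637, limma) and without MGT replicate 2 (adjusted p = 0.0792, limma). Tnnt1 fell by 0.36 (SE 0.123, adjusted p = 0.0216, limma), and this was lost with no filter (adjusted p = 0.0754, limma) and without shNT replicate 1, shNT replicate 2 or MGT replicate 2 (adjusted p = 0.0885, 0.0606 and 0.169, limma). Tnni3 had 0.13 (SE 0.067, adjusted p = 0.129, limma), and passed without MGT replicate 2 (adjusted p = 0.019, limma). Tnnt2 had 0.07, Tnnt3 0.01 and Tnni1 -0.06, none of them called. Mef2c was also lower with shNT (473 ± 4.19, against 741 ± 29 with MGT), and Actc1 was at 135 ± 0.636 with shNT, against 229 ± 3.72 with MGT. Whether the dose of factors bears on the troponins here was not tested.

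Markers of macrophages were, like Tnni2, lower in the hairpin cultures than with MGT alone. The 6 macrophage markers in the table, among them the lysozyme gene Lyz2 and the receptor Csf1r, were all lower with shNT than with MGT, by a median of 1.55 log2 units, and all lower with shPtbp1 than with MGT, by a median of 1.69. Of all tested genes 20.1% were lower with shNT than with MGT and 20% with shPtbp1, and their median was 0.02 in both comparisons. Their sum was 1373.9 to 1426.7 scaled CPM with shPtbp1, 1179.3 to 1232.0 with shNT, 2960.3 to 3045.4 with MGT, 2724.1 to 2932.6 in the control-labelled cultures, 433 to 437 in CM and 626 to 627 in CF, and none was at 0. Across the cultures the order of Tnni2 was like that of the marker sum, but not like that of most single markers. With shPtbp1 over shNT, 1 of the 6 markers was higher and 5 were lower, beside 16.7% of all tested genes higher and 18.1% lower. With MGT over the control-labelled cultures, 1 was higher, 3 were lower and 2 were not called, beside 17.9% of all tested genes higher and 17.7% lower. Tnni2 was called in neither of these comparisons. CM had more Tnni2 than either hairpin group at a lower marker sum. The neighbour Syt8, which lies 1412 bp from Tnni2 on the same strand, was also low with the hairpins (0.102 and 0.0561 with shPtbp1, 0.114 and 0.0458 with shNT) and higher without them (0.601 and 0.601 with MGT, 0.571 and 0.531 in the control-labelled cultures). Syt8 was at 0.0971 and 0.0263 in CM and 0.167 and 0.183 in CF, where Tnni2 was not correspondingly low. Lsp1, on the other side, had a log2 fold change of 0.26 with shNT against MGT (SE 0.041, adjusted p = 4.69e-05, limma). The part of macrophage RNA in the Tnni2 result was not tested.

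**Figure D3:**
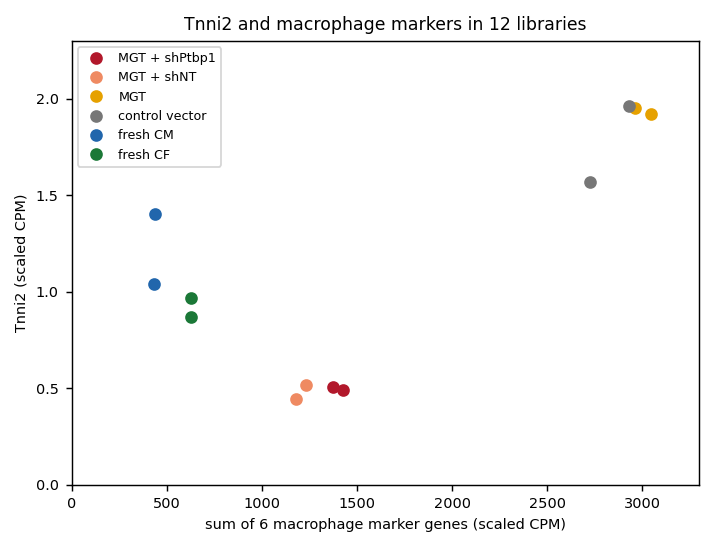
Tnni2 (scaled CPM, y axis) against the sum of 6 macrophage markers (scaled CPM, x axis), 1 point a library and 1 colour a group. The MGT and control-labelled libraries were high on both axes, the hairpin libraries lower on both, and the CM libraries had Tnni2 at 1.04 to 1.40 with marker sums of 433 to 437.

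The Ptbp1 hairpin was set against the non-targeting one on top of MGT. All 3 heart troponins were higher with shPtbp1, Tnni3 most, at 1.51 times its shNT mean, then Tnnc1 at 1.21 and Tnnt2 at 1.2 times, and fast troponin T was lower. By limma 5 members were higher, 1 lower and 1 not called, where 34.8% of all tested genes were called (16.7% higher, 18.1% lower), and the members' median was 0.26 beside -0.00 over all tested genes. Tnni3 rose by 0.58 (SE 0.067, adjusted p = 1.94e-06, limma), Tnnc1 by 0.27 (SE 0.061, adjusted p = 0.00192, limma) and Tnnt2 by 0.26 (SE 0.059, adjusted p = 0.00207, limma). Tnnt3 fell by 0.47 (SE 0.128, adjusted p = 0.00772, limma), which was -0.31 and not called without shPtbp1 replicate 1 (adjusted p = 0.111, limma) and not called without shNT replicate 2 (adjusted p = 0.068, limma). Tnnt1 rose by 0.41 (SE 0.123, adjusted p = 0.0144, limma), a call lost with no filter (adjusted p = 0.0609, limma), without shPtbp1 replicate 2 (adjusted p = 0.0856, limma) and without shNT replicate 1 (adjusted p = 0.072, limma). Tnni1 rose by 0.21 (SE 0.076, adjusted p = 0.04, limma), and 6 alternatives lost this call, with adjusted p up to 0.175 without shPtbp1 replicate 1 (limma). They were a pseudocount of 2, no filter, a fit of the 4 libraries alone, and leaving out shPtbp1 replicate 1, shNT replicate 1 or shNT replicate 2. Tnni2 had 0.03 (SE 0.132, adjusted p = 0.899, limma). The cardiomyocyte markers summed to 370 to 390 with shPtbp1 and 313 to 323 with shNT, with 7 of 12 higher and 5 not called, and the macrophage markers to 1373.9 to 1426.7 with shPtbp1 and 1179.3 to 1232.0 with shNT, with 1 of 6 higher and 5 lower. Their part in the result was not tested.

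With MGT alone as the base, where the lentivirus also differs, shPtbp1 cultures had more Tnni3 and Tnnt2 and less Tnnt3 and Tnni2, while Tnnc1 was not called. By limma 2 members were higher, 2 lower and 3 not called, where 44.3% of all tested genes were called (24.3% higher, 20% lower). Tnni3 rose by 0.71 (SE 0.067, adjusted p = 5.93e-08, limma) and Tnnt2 by 0.33 (SE 0.059, adjusted p = 1.66e-04, limma). Tnni2 fell by 1.29 (SE 0.132, adjusted p = 1.99e-07, limma). Tnnt3 fell by 0.46 (SE 0.128, adjusted p = 0.00672, limma), and this was lost without shPtbp1 replicate 1 (adjusted p = 0.109, limma) and without MGT replicate 1 (adjusted p = 0.0876, limma). Tnnc1 had 0.03 (SE 0.061, adjusted p = 0.769, limma), Tnnt1 0.05 (SE 0.123, adjusted p = 0.8, limma) and Tnni1 0.15 (SE 0.076, adjusted p = 0.113, limma), which passed without MGT replicate 2 (adjusted p = 0.0179, limma). This comparison shares its shPtbp1 libraries with the one against shNT.

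Other muscle genes did not all go the way of Tnni3 under shPtbp1. The counts of each list stand beside 16.7% of all tested genes higher and 18.1% lower against shNT. Against shNT, 7 of 13 thick filament genes were higher, 2 lower and 4 not called, with Myom2 (466 ± 2.28 with shPtbp1, 268 ± 2.47 with shNT, 0.80), Myh7 (0.52) and Myl2 (0.48) in front and Mybpc3 (-0.33) and Myom1 (-0.13) lower. Of 24 thin filament partners 6 were higher and 7 lower, and the largest changes were decreases, in Nrap (2.99 ± 0.0371 with shPtbp1, 5.56 ± 0.248 with shNT, -0.80), skeletal actin Acta1 (-0.67) and the tropomyosin Tpm2 (423 ± 2.49 with shPtbp1, 668 ± 21.9 with shNT, -0.66). Of 15 splicing regulators 4 were higher and 5 lower, with Ptbp1 (-2.18) and its paralogue Ptbp2 (134 ± 1.86 with shPtbp1, 29.9 ± 0.726 with shNT, 2.15) far ahead, followed by Mbnl3 (-0.69). Of 15 regulators of muscle genes 3 were higher and 3 lower, and Myocd (7.9 ± 0.443 with shPtbp1, 14.8 ± 1.27 with shNT, -0.87) changed most. Of 14 fast and skeletal genes 6 were higher and 2 lower. The skeletal heavy chains Myh8 (2.07) and Myh2 (1.20), whose reads close copies may share, led beside Mybpc2, the fast myosin binding protein (-0.88). Tnnt2 is known for exons that such splicing factors include or skip, but the table holds gene levels, so its splicing was not analysed here.

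**Figure D4:**
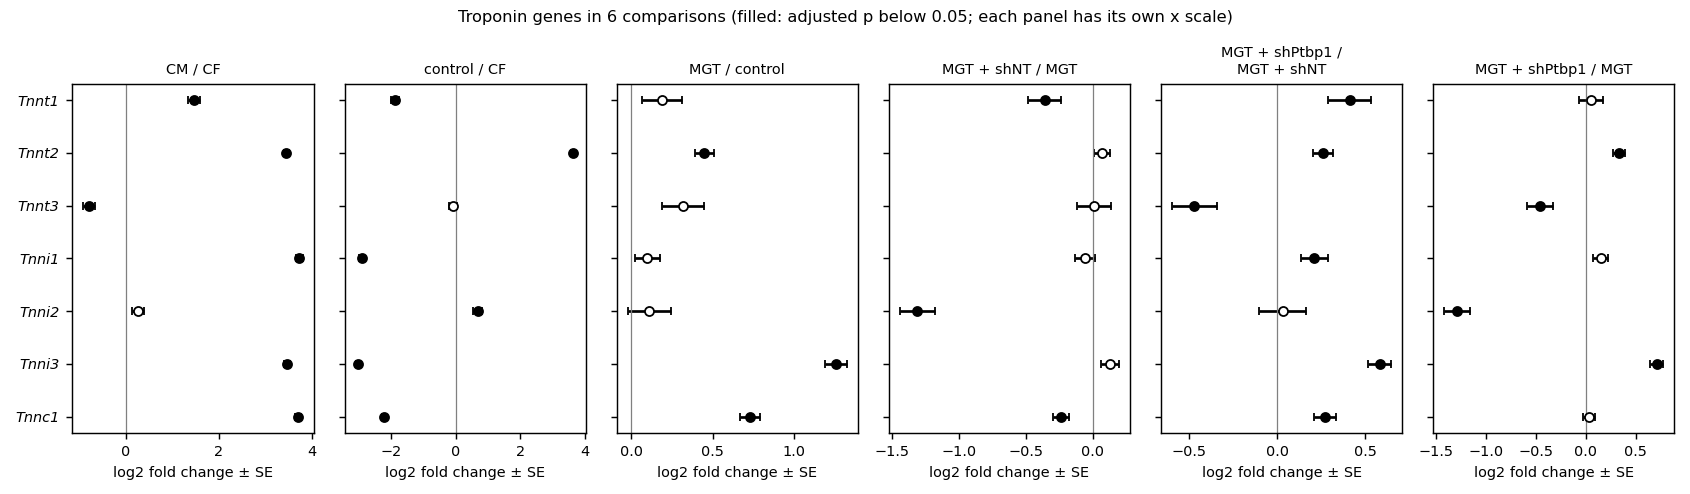
Log2 fold change ± SE of the 7 tested troponins in 6 comparisons, filled where the adjusted p was below 0.05, each panel with an x scale of its own. Tnni3, Tnnt2 and Tnnc1 were higher in CM, with MGT and with shPtbp1 over shNT, but in control-labelled cultures over CF Tnnt2 alone of these was higher (3.63).

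The balance of the subunits was read per kilobase of annotated exon, with coding length as the alternative, since levels of different genes need a length to be compared. Summed troponin T was at 492 and 535 scaled CPM per kb with MGT and shPtbp1, 411 and 448 with MGT and shNT, 398 and 421 with MGT, 315 and 285 in the control-labelled cultures, 279 and 265 in CM, and 28.4 and 29.2 in CF. Summed troponin I was at 17.5 and 19.3 with MGT and shPtbp1, 12.6 and 12.7 with MGT and shNT, 11.9 and 13.6 with MGT, 7.02 and 6.19 in the control-labelled cultures, 546 and 537 in CM, and 46.6 and 47 in CF. All 8 cultures thus had more troponin T than troponin I per kb, and the 4 fresh libraries had less, but by coding length the ratio of T to I in the fresh libraries was 0.99 to 1.15, so that their order depends on the length. The mean ratio of T to I was 27.9 with MGT and shPtbp1, 34 with MGT and shNT, 32.2 with MGT, 45.4 in the control-labelled cultures, 0.502 in CM and 0.617 in CF. Its size depends on the length used, since Tnnt2 carries a long annotated exon sum of 7752 bases but a coding length of 906: by coding length the mean ratio was 67.1 with MGT and shPtbp1, 80.1 with MGT and shNT, 76.6 with MGT, 101 in the control-labelled cultures, 1.00 in CM and 1.15 in CF. The order of the groups was the same by both lengths, and shPtbp1 had the lowest ratio of the cultures by both. Troponin C, almost all of it Tnnc1, was close to troponin I in every group by exon length, with mean ratios of C to I from 1.06 with MGT and shPtbp1 to 1.72 in the control-labelled cultures, and 1.33 in CM and 1.18 in CF. By coding length the ratios of C to I lay between 0.63 in CF and 0.966 in the control-labelled cultures.

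Within troponin I the make-up shifted between groups. Tnni3 made up 88.7 ± 1.27% of troponin I per kb of exon with MGT and shPtbp1, 85.7 ± 0.0512% with MGT and shNT, 77.6 ± 0.578% with MGT, 60.4 ± 0.421% in the control-labelled cultures, 70.7 ± 0.966% in CM and 73.6 ± 2.1% in CF (SD, n = 2 each). The culture groups did not overlap, and those with factors lay above both fresh preparations. Tnni1 made up 9.5 ± 1.09% with MGT and shPtbp1, 11.8 ± 0.297% with MGT and shNT, 12.2 ± 0.291% with MGT, 21.8 ± 1.64% in the control-labelled cultures, 29.2 ± 0.937% in CM and 25.1 ± 2.01% in CF. These shares depend on the length used: by coding length Tnni1 made up 17.2% with MGT and shPtbp1, 20.9% with MGT and shNT, 21.9% with MGT, 36.5% in the control-labelled cultures, 44.8% in CM and 39.8% in CF, and the groups kept their order. The fast Tnni2, under 2 scaled CPM everywhere, still reached 17.8 ± 1.22% in the control-labelled cultures and 10.2 ± 0.868% with MGT, against 0.15 ± 0.0295% in CM (by coding length 12.2%, 7.47% and 0.0943%), and the other I genes were low in those cultures too. The ratio of Tnni3 to Tnni1 per kb, the 2 genes exchanged in the neonatal heart, averaged 9.4 with MGT and shPtbp1, 7.28 with MGT and shNT, 6.37 with MGT, 2.77 in the control-labelled cultures, 2.43 in CM and 2.94 in CF. By coding length it averaged 4.78 with MGT and shPtbp1, 3.70 with MGT and shNT, 3.23 with MGT, 1.41 in the control-labelled cultures, 1.23 in CM and 1.49 in CF. Both genes were low in the cultures, with Tnni3 at 1.04% to 4.26% and Tnni1 at 0.91% to 1.1% of the CM mean. The maturity of the cells was not tested. The shares and ratios are described here and were not tested; an exact test of 2 libraries against 2 cannot go below p = 0.33.

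Troponin T was nearly a single gene. Tnnt2 made up 99.1 to 99.5% of it per kb of exon on average in the 4 culture groups and 96.6 ± 0.122% in CM. CF were more mixed, with 83 ± 0.892% Tnnt2, 9.68 ± 0.521% Tnnt1 and 7.31 ± 1.41% Tnnt3. By coding length the minor shares were smaller, and CF held 94.5% Tnnt2, 3.61% Tnnt1 and 1.89% Tnnt3.

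**Figure D5:**
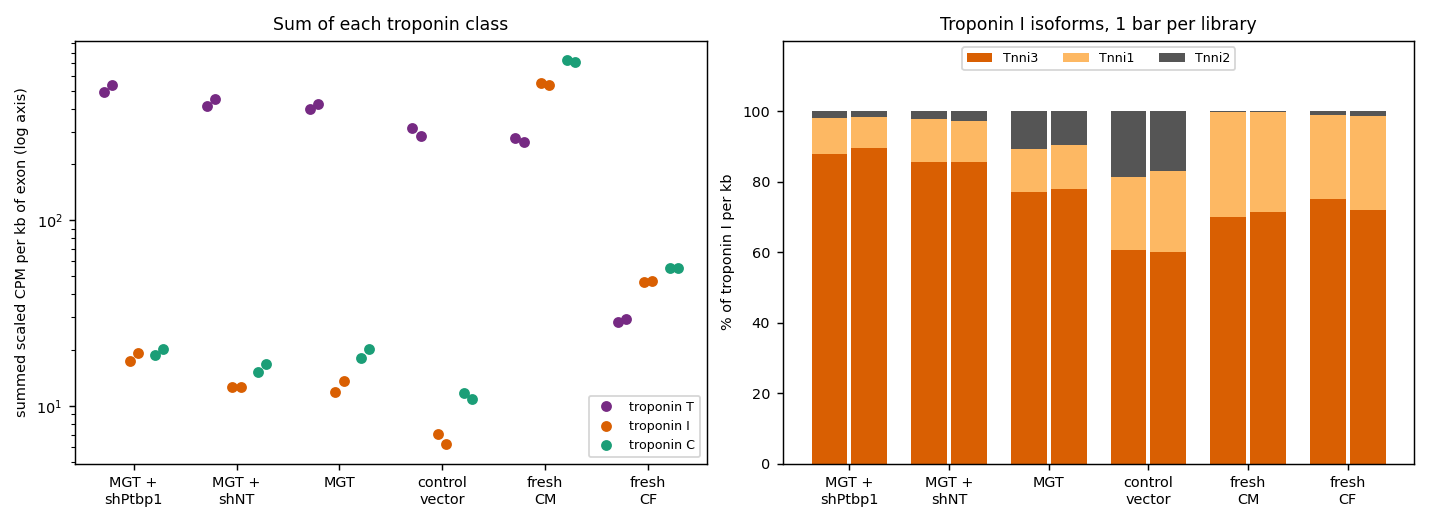
Left, summed scaled CPM per kb of exon for troponin T, I and C on a log axis, 1 point a library. Right, percent of troponin I per kb held by Tnni3, Tnni1 and Tnni2, 1 bar a library. Troponin T stood above I and C in all 8 cultures and, by this exon length, below them in the 4 fresh libraries, and the share of Tnni3 ran from a mean of 60.4% in the control-labelled cultures to 88.7% with MGT and shPtbp1.

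Over the 12 libraries, which fall into cultured and fresh cells, Tnni1, Tnni3, Tnnc1 and Tnnt1 varied together, with Pearson r of 0.946 to 0.989 on the log2 scale. Tnnt3 ran against them, with r of -0.764 to -0.797, and Tnni2 had r of -0.092 to 0.107 with them. Tnnt2 lay between, with r of -0.240 with Tnni3, -0.248 with Tnnc1, -0.363 with Tnni1 and -0.460 with Tnnt1. Neighbours on the chromosome were thus of both kinds: Tnnt1 and Tnni3 had r = 0.946, Tnni1 and Tnnt2 -0.363, and Tnni2 and Tnnt3 -0.042. These values describe 6 groups of 2 libraries and carry no test.

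Among all tested genes, those most like each member over the 12 libraries were taken by Pearson r. For Tnnt2 they were Ppp1r14c (0.9985), Fhod3 (0.9957) and Hspb7 (0.9950). Ppp1r14c, an inhibitor subunit of a phosphatase, had mean levels of 117 with MGT and shPtbp1, 102 with MGT and shNT, 109 with MGT, 76.2 in the control-labelled cultures, 71.5 in CM and 8.96 in CF. For Tnni1 they were Abcc8 (0.9995), Kcnip2 (0.9992) and Kcnj11 (0.9985), genes of potassium channel complexes. For Tnni3 they were Pdk2 (0.9965), Camta1 (0.9939) and the Z-disc protein Actn2 (0.9908), and for Tnnc1 Hspa2 (0.9989), Cidea (0.9970) and Cited1 (0.9970). Tnnt1 was closest to Hoxa5 (0.9972), phospholamban, Pln (0.9955), and Hrc (0.9946), and Tnnt3 to Uevld (0.9427), Ocrl (0.9422) and Smap1 (0.9368). Hoxa5 and Cidea were also low in the culture groups, with means of at most 0.233 and 0.221. Tnni2 was closest to Ctse (0.9773), Ncf1 (0.9702) and Cd300lf (0.9689), genes known from white blood cells. Ncf1, for one, averaged 18.1 with MGT and shPtbp1, 19.1 with MGT and shNT, 63 with MGT, 67.8 in the control-labelled cultures, 35 in CM and 25.8 in CF.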

How the data were processed

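Polyadenylated RNA of 12 libraries was analysed, made with a stranded kit per the labels' protocols. The authors deposited CPM for 23423 genes in a single table, whose 12 columns carry the sample titles, and 0 columns were left unused. FastQC, TopHat2 2.1.0, HTSeq 0.6.1p1 and mm10 are named in the submitters' processing notes. Annotation and strand setting: not given in the sources used here. Each deposited CPM column summed to 1000000, and 100% of its values were whole reads within 0.1 reads. In 27 rows the gene name is a number; these were tested and not named.

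Scaled CPM are the deposited CPM over a median-of-ratios factor (0.966 to 1.06). The filter was 1 CPM or more in 2 or more libraries. The log2 of scaled CPM plus 0.5 went into limma 3.58.1 (R 4.3.3), with 1 mean per group over the 12 libraries and 6 residual degrees of freedom, with eBayes with trend, two-sided, adjusted by Benjamini-Hochberg over all tested genes. Alternatives were 3 other scalings, pseudocounts, filters, a robust prior, smaller fits, the replicate number as a block, each library left out, and the quasi-likelihood test of edgeR 4.0.16 on whole reads. The procedure was tested on simulated data. The simulated reads took their spread from these same libraries, so they cannot show whether the 2 libraries of a group are separate replicates. Levels of different genes were compared per kb of exon or coding length. Figures were drawn with matplotlib 3.10.9.

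The members and lists were chosen with earlier results of these data known. Besides the members, up to 3 called genes of each list with the largest change, the 3 genes most like each member, chromosomal neighbours and the delivered or targeted genes are named, and every gene of a count of 5 or fewer may be named after its values were seen.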

Additional observations from a re-analysis of the deposited data

How the results depend on the processing

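Of 42 tests of members in the 6 planned comparisons, 28 were called, where 34.8% to 86.9% of all tested genes were called in a comparison. Alternatives that kept both libraries of each compared group gave 22 (filter at 5 CPM, which leaves fewer members) to 28, and 28 with the replicate block. Differences between replicates 2 and 1 were correlated between groups over all tested genes, with r of -0.136 to 0.162. The highest was between the shPtbp1 and shNT groups. Such correlations cannot show whether libraries of different groups shared a culture or preparation. Of 720 values of 49 member results under alternatives, the control-labelled cultures against CM included, 675 kept their direction and side of the threshold, 24 lost the call, 6 gained it and 15 turned direction, all 15 uncalled in both. Those were Tnni1 (-0.01 without MGT replicate 2; -0.01 to 0.21 over the libraries left out), Tnni2 (-0.02 without control replicate 2; -0.02 to 0.23) and Tnnt1 (-0.00 without control replicate 2; -0.00 to 0.38) in MGT against control; Tnni1 (0.06 without MGT replicate 2, -0.17 to 0.06) and Tnnt3 (-0.01 with TMM, with 4 libraries and with edgeR, -0.05 without shNT replicate 2, -0.08 without MGT replicate 2, range -0.08 to 0.11) in shNT against MGT; Tnni2 (-0.02 without shNT replicate 1) in shPtbp1 against shNT; Tnnc1 (-0.00 with 4 libraries, -0.04 without shPtbp1 replicate 2, -0.05 without MGT replicate 1, range -0.05 to 0.11) and Tnnt1 (-0.04 without MGT replicate 1, range -0.04 to 0.14) in shPtbp1 against MGT; and Tnnt3 (0.08 without CF replicate 1, range -0.24 to 0.08) in control against CF. The cause was not tested. Genes called in MGT against control numbered 4972, and 3298 to 4538 with a library left out, fewest without MGT replicate 2. By coding length and without length, the ratio of troponin T to I was 67.1 and 98.0 with MGT and shPtbp1, 80.1 and 118 with MGT and shNT, 76.6 and 113 with MGT, 101 and 152 in control, 1.00 and 1.51 in CM and 1.15 and 1.71 in CF, since the exon sum of Tnnt2 is long. Among called genes, higher and lower numbered 3432 and 2809 in shNT against MGT but 2864 and 3147 with TMM and 2978 and 3188 with edgeR, and 3398 and 2797 in shPtbp1 against MGT but 2920 and 3095 with TMM and 2952 and 3098 with edgeR. Shares of isoforms moved with the length, as given with them. Without scaling the median of all genes shifted to -0.10 in control against CF and -0.11 in control against CM. Where a library is left out, the lone library of its group is assumed to vary like the others. Depth limits Tnnc2, with 1 to 8 reads a library.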
